A study of Mus musculus with 20 samples.

Results

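The genes of glycosylphosphatidylinositol (GPI) anchor synthesis were examined in pyramidal cells of the mouse subiculum, from which most of the output of the hippocampus leaves. The set holds 30 genes of the 37607 gene entries in the bulk table, chosen by symbol as the enzymes that build the anchor, attach it to proteins, remodel it or release it. The pathway was selected on the bulk levels of 1 of them, Piga, which differed between populations. The Piga values below are therefore a description with no test, and tests are given for the other 29 genes.

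Bulk RNA-seq of 12 libraries covered 4 populations of cells named by projection target, with 3 biological replicates each: NA, PFC, RSC and VHN. The labels leave these names unexplained. In common use NA is the nucleus accumbens, PFC the prefrontal cortex and RSC the retrosplenial cortex, whereas VHN is given here only as labelled. Fluorescent neurons were sorted by hand from microdissected slices, and the single-cell data came from 4 plates of 96 wells that are tied to no projection target. No strain, age, sex, genotype or treatment is given in the labels, and no group is described as a control. Since NA and PFC libraries carried Piga and RSC and VHN libraries hardly did, these pairs are called the 2 sides. The sides were drawn from these same data.

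Many proteins of the neuronal surface, among them adhesion molecules and receptors, have no membrane-spanning segment and are held in the outer leaflet by a GPI anchor. The anchor is built on phosphatidylinositol in the endoplasmic reticulum, sugar by sugar, and is then transferred whole to the protein. Piga encodes the catalytic subunit of GPI-N-acetylglucosaminyltransferase, the enzyme of the first step. It lies on the X chromosome, and loss of human PIGA in blood stem cells leaves blood cells without GPI-anchored proteins.

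The promoter of Piga is shown because its transcript was at 0 or close to it in whole populations. RefSeq promoter entries (build GRCm38.p6) were found for 24 of the 30 genes. The sequence below is the 250 bases before the start of Piga at chrX:164419530-164419779 on the plus strand of that build, a later one than the mm9 build named in the processing notes. Capitals mark each CG pair, a motif that reads the same on both strands.
Piga: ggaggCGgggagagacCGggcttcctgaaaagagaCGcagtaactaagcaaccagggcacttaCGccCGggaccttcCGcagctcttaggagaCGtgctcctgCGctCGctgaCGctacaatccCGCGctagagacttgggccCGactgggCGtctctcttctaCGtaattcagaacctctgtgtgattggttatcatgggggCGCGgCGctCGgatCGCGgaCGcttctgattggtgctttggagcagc
It holds 22 CG pairs and 60.0% G or C. Windows of the same length before 33 starts of 23 other pathway genes held between 5 and 38 CG pairs, with a median of 18, and 9 of these 33 (27.3%) held at least 22. Of all 32851 promoters in the table, 14.8% did, with a median of 6 CG pairs. The 9 starts belonged to Dpm1, Pgap2, Pigp, Pigv and Pigw, with Pgap2 and Pigp each entered more than once. The 27.3% is thus a share of starts and not of genes. By its number of CG pairs the Piga promoter lay within the range of its pathway.

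The bulk libraries held 10777271 to 20904121 gene fragments. All 30 genes passed the filter on low counts, and 13916 genes were tested in all. The cells matched their label: Slc17a7, the vesicular glutamate transporter of cortical pyramidal cells, averaged 914 ± 115 CPM in NA and PFC libraries and 597 ± 48.6 CPM in RSC and VHN libraries (mean ± SD, n = 6 each). CPM are fragments scaled to the size of the library, with TMM factors. Of the 7 pyramidal markers, 4 were called higher and 1 lower in NA and PFC. The 7 interneuron markers summed to 0.156 to 11.8 CPM in NA and PFC libraries and to 1.26 to 237 CPM in RSC and VHN libraries, and 4 of the 5 tested were called lower in NA and PFC, while Vip was at 0 throughout. Sums of 5 astrocyte markers reached 12.9 CPM in NA and PFC, against 3.27 CPM in RSC and VHN. Only 2 of the 5 were tested, and neither was called. Their log2 fold changes of NA and PFC over RSC and VHN were 5.21 for Slc1a3 (edgeR adjusted p = 0.0558) and 0.88 for Aqp4 (edgeR adjusted p = 0.778). Markers of oligodendrocyte precursors, microglia and endothelial cells summed to at most 3.12 CPM in NA and PFC, against 2.15 CPM in RSC and VHN, and their 1 tested gene was not called. In bulk libraries, fewer cells of a type and less RNA per cell cannot be told apart.

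Piga was present in 5 of the 6 NA and PFC libraries at similar levels and was at or near 0 in all RSC and VHN libraries. The NA libraries held 244, 3 and 293 fragments of Piga, which is 15.2, 0.322 and 15.3 CPM. The PFC libraries held 211, 232 and 152 fragments, or 18.3, 16.1 and 14.3 CPM. No fragment was counted in any of the 3 RSC libraries. The VHN libraries held 5, 1 and 3 fragments, or 0.26, 0.06 and 0.18 CPM. In CPM with TMM factors the sides did not overlap, but only narrowly so. NA replicate 2, with 3 fragments and 0.322 CPM, lay just above VHN replicate 1 with 5 fragments and 0.26 CPM. That order depended on the scaling. Scaled by gene fragments alone (11325171 and 18063654), NA replicate 2 would lie below VHN replicate 1. In the deposited FPKM, which allow for gene length, NA replicate 2 lay above it (0.175 against 0.0908). Across all tested genes, 7.52% had no overlap between the sides, and since the choice of Piga rested on this contrast nothing is read from its place among them.

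Mean Piga was 10.3 ± 8.6 CPM in NA libraries and 16.2 ± 2.02 CPM in PFC libraries, against 0 CPM in RSC libraries and 0.166 ± 0.102 CPM in VHN libraries (mean ± SD over 3 libraries each). PFC stood highest and NA next, and they differed by less than the SD of NA. VHN was next with 9 fragments over its 3 libraries, and RSC last with none. The ratio of mean CPM between NA and PFC and RSC and VHN was 160, with a 95% counting interval of 88.9 to 371. It was 191 without NA replicate 2 and 282 without VHN replicate 1, the library with most of the VHN fragments. Against RSC, with 3 fragments over the group taken as the floor, Piga was at least 192-fold higher in NA and at least 303-fold higher in PFC. Against VHN the ratio was 61.9 in NA (counting interval 37.3 to 157) and 97.8 in PFC (50.0 to 210). Without NA replicate 2, the NA values were at least 285-fold against RSC and 91.8 against VHN. The counting intervals were computed from fragments pooled over the libraries of each side or population, and not from the mean CPM. They cover counting error only. Interneuron markers summed highest in RSC replicates 2 and 3 and VHN replicate 3 (58.7, 237 and 178 CPM). The other RSC and VHN libraries had 1.26 to 5.25 CPM, below NA replicates 1 and 2 (9.13 and 11.8 CPM). Without RSC replicates 2 and 3 and VHN replicate 3, the Piga ratio was 124.

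**Figure D1:**
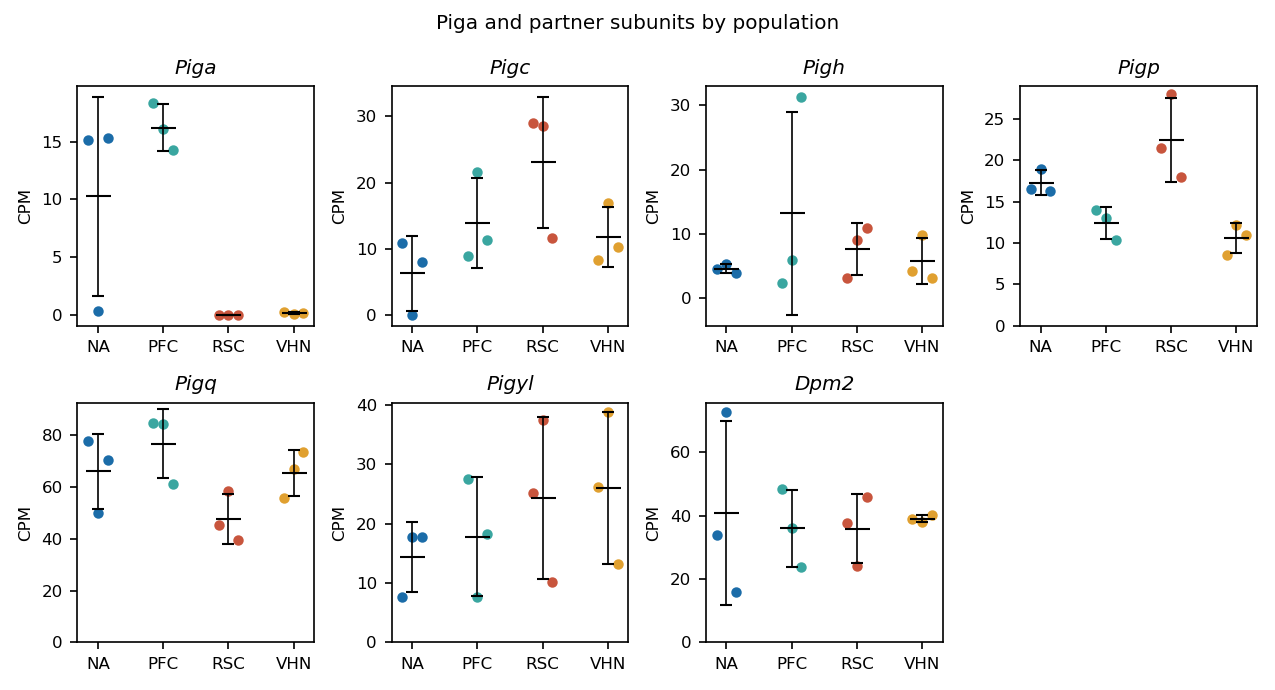
CPM of Piga and of 6 partner subunits in each of the 12 bulk libraries, by population (NA, PFC, RSC, VHN from left to right). Points are libraries, the bar is the mean and the whiskers are 1 SD (n = 3). Piga is between 14.3 and 18.3 CPM in 5 NA and PFC libraries, 0.322 CPM in NA replicate 2 and at most 0.26 CPM in RSC and VHN, while the partners overlap between the sides.

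On a scale that allows for gene length, Piga was a low to middling member of its pathway where it was present. Its deposited FPKM was 4.59, 0.175 and 5.25 in the NA libraries and 5.94, 5.53 and 3.97 in the PFC libraries. It was 0 in all RSC libraries and 0.0908, 0.0208 and 0.061 in the VHN libraries. Ranked from the highest FPKM among the 30 genes, Piga stood between 18 and 22 in those 5 NA and PFC libraries, at 25 in NA replicate 2, and at 29 or 30 in each RSC and VHN library. The highest mean FPKM in the pathway was that of Dpm2, at 46.1 in NA and PFC and 42.5 in RSC and VHN.

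The partner subunits of Piga in the transferase did not share its pattern. Pigq, which helps to hold the complex together, had 77.9, 50.0 and 70.6 CPM in NA and 84.7, 84.3 and 61.4 CPM in PFC libraries, against 45.3, 58.6 and 39.8 CPM in RSC and 55.9, 67.1 and 73.5 CPM in VHN. NA and VHN libraries overlapped, whereas all PFC libraries were above all RSC libraries. The log2 fold change of NA and PFC over RSC and VHN was 0.35 (SE 0.221, adjusted p = 0.335, edgeR quasi-likelihood test, as for every adjusted p here). Pigp, a small membrane subunit, had 16.5, 19.0 and 16.3 CPM in NA and 14.0, 13.0 and 10.3 CPM in PFC, against 21.5, 28.0 and 18.0 CPM in RSC and 8.61, 12.2 and 10.9 CPM in VHN. NA libraries overlapped with RSC libraries and PFC libraries with VHN libraries, and the log2 fold change between the sides was -0.07 (SE 0.38, adjusted p = 0.923). All NA and RSC libraries of Pigp lay above all PFC and VHN libraries, a grouping that cuts across the sides. The test over the 4 populations gave Pigp an adjusted p of 0.466. No share of all genes without overlap was computed for this grouping or for pairs of populations.

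Pigc, a subunit needed for the transferase activity, had 10.8, 0 and 8.03 CPM in NA and 8.84, 21.6 and 11.4 CPM in PFC libraries, against 29.0, 28.5 and 11.7 CPM in RSC and 8.25, 16.9 and 10.3 CPM in VHN. Its mean was lower in NA and PFC, the opposite sign to Piga, with overlapping libraries (log2 fold change -0.81, SE 0.713, adjusted p = 0.508). NA replicate 2, the library low in Piga, had no fragment of Pigc. Pigh, the subunit bound closely to Piga, had 4.6, 5.25 and 3.96 CPM in NA and 2.34, 5.89 and 31.3 CPM in PFC, against 3.17, 8.99 and 11.0 CPM in RSC and 4.2, 9.82 and 3.15 CPM in VHN. A single PFC library stood far above the rest, and the sides did not separate (log2 fold change 0.23, SE 0.671, adjusted p = 0.862).

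Pigyl, annotated as a class Y-like subunit, had 7.64, 17.8 and 17.7 CPM in NA and 27.6, 7.69 and 18.2 CPM in PFC, against 25.2, 37.5 and 10.2 CPM in RSC and 26.1, 38.8 and 13.2 CPM in VHN. Libraries of all 4 populations overlapped (log2 fold change -0.65, SE 0.461, adjusted p = 0.397). Dpm2, which regulates the transferase and also belongs to dolichol phosphate mannose synthase, had 33.9, 72.7 and 15.9 CPM in NA and 48.3, 36.0 and 23.7 CPM in PFC, against 37.6, 24.2 and 46.0 CPM in RSC and 39.0, 37.9 and 40.2 CPM in VHN. The sides were centred on nearly the same level (log2 fold change 0.03, SE 0.356, adjusted p = 0.968).

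**Figure D2:**
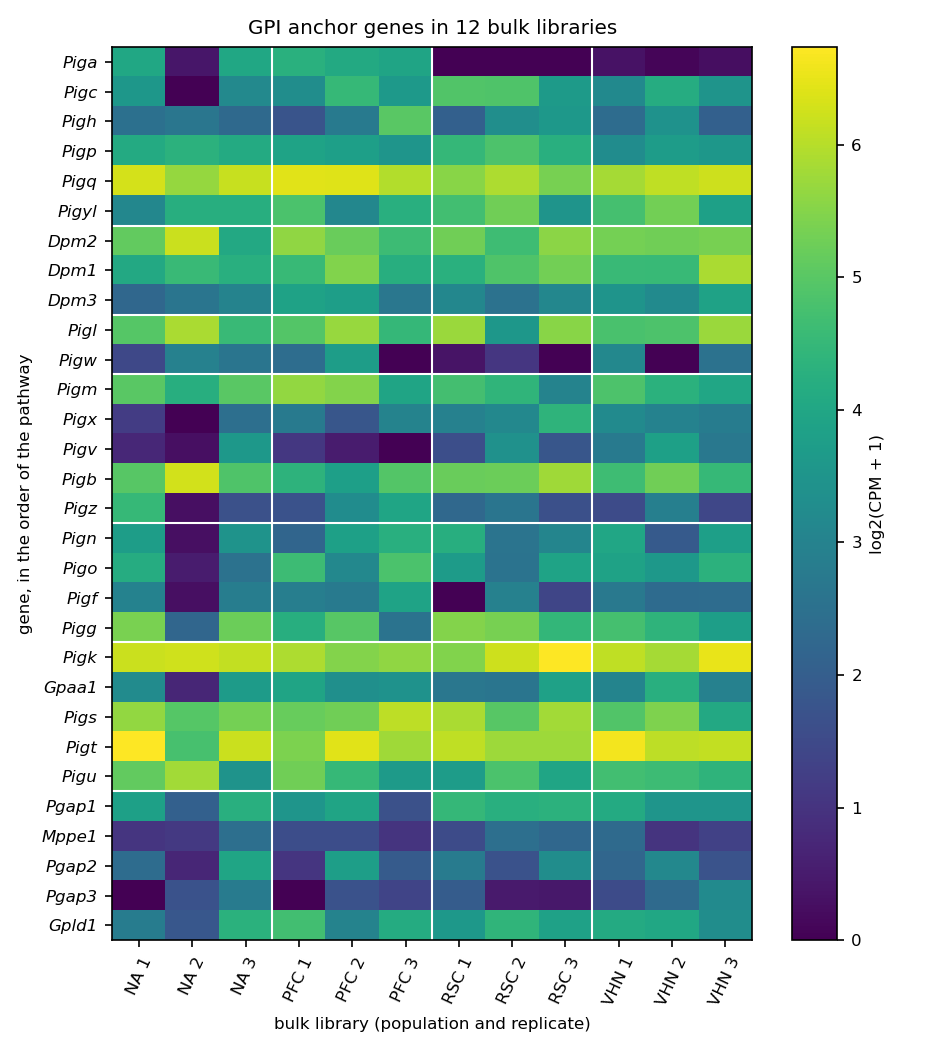
Level of the 30 GPI anchor genes, as log2(CPM + 1), in the 12 bulk libraries. Genes run down the page in pathway order with white lines between roles, and white lines also separate the populations. The Piga line is dark in NA replicate 2 and in all RSC and VHN libraries, and NA replicate 2 has further dark cells in 9 other genes under 1 CPM.

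Over the rest of the pathway, none of the 29 genes was called between the sides, and Piga was given no test. edgeR called 0 of the 29, 0 had an unadjusted p under 0.05 and DESeq2 also called 0, beside 14.2% of all tested genes called by edgeR and 27.5% with an unadjusted p under 0.05. The smallest adjusted p was 0.196, for Pigv. None of the 29 had sides that did not overlap, beside 7.52% of all tested genes. The median log2 fold change of the 29 genes was -0.07, against 0.01 for all genes tested, with 10 genes above 0 and 19 below. The 29 log2 fold changes lay between -2.10 (Pigv) and 1.84 (Pigw).

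How far each gene was measured varied with its level. The 95% interval of the log2 fold change stayed within 1 unit of 0 on both sides for 8 of the 29 genes and reached past 1 for the other 21, so changes of that size were not excluded for most. The highest upper bound among the 29 was 4.53, for Pigw, and the lowest lower bound -4.27, for Pigv.

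The same held for the other comparisons of populations. The test over the 4 populations called 0 of the 29 genes by edgeR (8.93% of all genes), with 0 at an unadjusted p under 0.05 and 0 called by DESeq2. NA against PFC gave 0 calls by edgeR (0.438% of all genes) and 0 by DESeq2, and 1 gene, Pigb, had an unadjusted p under 0.05. NA against RSC gave 0 calls by edgeR (5.83% of all genes) and 0 by DESeq2, with Pigx under an unadjusted 0.05 (adjusted p = 0.229). NA against VHN gave 0 calls by edgeR (2.75% of all genes) and 0 by DESeq2, with 0 under an unadjusted 0.05. In PFC against RSC, 0 were called by edgeR (9.76% of all genes) and 0 by DESeq2, with Pigq under an unadjusted 0.05 (adjusted p = 0.2). In PFC against VHN, 0 were called by edgeR (5.09% of all genes) and 0 by DESeq2, with Pigv under an unadjusted 0.05 (adjusted p = 0.174). In RSC against VHN, 0 were called by edgeR (0% of all genes) and 0 by DESeq2, with 0 under an unadjusted 0.05. Of all genes tested, 23.7% had an unadjusted p under 0.05 in the test over the 4 populations. The share was 13.4% in NA against PFC, 20.8% in NA against RSC and 17.4% in NA against VHN. It was 23.5% in PFC against RSC, 18.6% in PFC against VHN and 5.18% in RSC against VHN. No count among the 29 genes exceeded these shares. The shares of all genes called by DESeq2 are not given here. These comparisons share libraries with each other.

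By role, the steps after the first gave the following values between the sides. Dolichol phosphate mannose is the sugar donor, and its synthase genes Dpm1, Dpm2 and Dpm3 had log2 fold changes of -0.45 to 0.03, with intervals that reached from -1.28 to 0.92. Pigl removes the acetyl group in the second step and Pigw adds an acyl chain to inositol, and their values were -0.01 (SE 0.404) and 1.84 (SE 1.27). Pigw was the most uneven of the set: it had 1.74, 6.75 and 5.16 CPM in NA and 4.33, 12.4 and 0 CPM in PFC, against 0.29, 1.1 and 0 CPM in RSC and 7.83, 0 and 4.84 CPM in VHN. A library at 0 occurred in PFC, RSC and VHN alike.

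The mannosyltransferase group spread the most. Pigm adds the first mannose and Pigx stabilises it, Pigv adds the second, Pigb the next and Pigz a further one, and the 5 log2 fold changes ran from -2.10 to 1.24. Pigv had 0.68, 0.21 and 11.2 CPM in NA and 1.13, 0.42 and 0 CPM in PFC, against 2.08, 9.65 and 2.46 CPM in RSC and 5.83, 13.3 and 5.54 CPM in VHN. Apart from NA replicate 3, all NA and PFC libraries were below all RSC and VHN libraries, a direction opposite to that of Piga. The log2 fold change was -2.10 (SE 1.02), and without NA replicate 3 it was -3.66 with an adjusted p of 0.0406, so that library decided the call. Pigx averaged 3.52 CPM in NA and PFC, against 9.31 CPM in RSC and VHN (log2 fold change -1.52, SE 0.805, adjusted p = 0.237).

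Ethanolamine phosphate is added by Pign, Pigo and Pigg, with Pigf as a partner of the last pair, and these 4 genes had values of -0.24 to 0.78. The GPI transamidase, which cuts the protein and joins it to the anchor, is made of Pigk, Gpaa1, Pigs, Pigt and Pigu. Its 5 genes lay between -0.27 and 0.46, with Pigk, the catalytic subunit, at -0.27 (SE 0.244) and Pigt at -0.06 (SE 0.299). The intervals of the 5 reached from -1.39 to 1.38. Remodelling and release enzymes gave -0.61 to 0.23: Pgap1 removes the acyl chain from inositol, Mppe1 an ethanolamine phosphate, Pgap3 and Pgap2 exchange the lipid in the Golgi, and Gpld1 cuts the anchor.

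**Figure D3:**
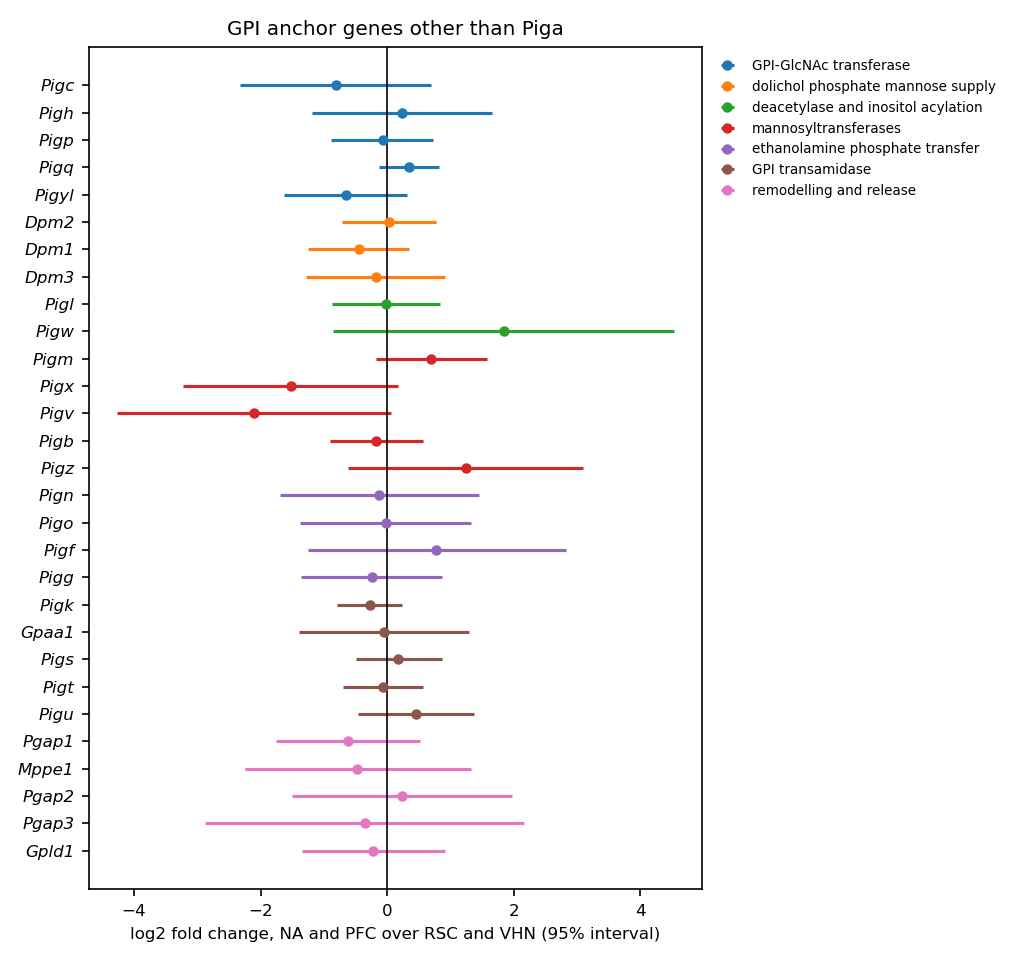
Fitted log2 fold change of NA and PFC over RSC and VHN for the 29 GPI anchor genes other than Piga, in pathway order and coloured by role. Points are edgeR estimates and lines are 95% intervals. All 29 lines include 0, with estimates from -2.10 for Pigv to 1.84 for Pigw.

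NA replicate 2 was low in many pathway genes besides Piga. In that library 10 of the 30 genes were under 1 CPM (Piga, Pigc, Pigx, Pigv, Pigz, Pign, Pigo, Pigf, Gpaa1 and Pgap2), against 0 to 3 of 30 in each of the other 11 libraries. Over all tested genes, 25.2% were under 1 CPM in NA replicate 2 and 13.5% to 19.1% in the others. Its depth was 11325171 gene fragments, above that of PFC replicates 1 and 3. The part of this in its low Piga value was not tested. Counted by gene, Piga was under 1 CPM in 7 libraries, the most of any member, followed by Pigw, Pigv and Pgap3 with 4 each.

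Sex-linked transcripts were read because Piga lies on the X chromosome. Xist, the RNA of the inactive X, did not exceed 0.0521 CPM in NA and PFC libraries and was at 0 in RSC and VHN libraries. The Y-linked Ddx3y averaged 46.4 ± 21.5 CPM in NA and PFC, against 50.4 ± 13.6 CPM in RSC and VHN (mean ± SD, n = 6 each), and the adjusted p of the 4 Y-linked genes lay between 0.724 and 0.986. By this measure the libraries were alike in sex. The genes next to Piga were not called either. Vegfd, a vascular growth factor, had 0.19, 0 and 1.98 CPM in NA and 19.0, 7.07 and 0 CPM in PFC, against 0.12, 0 and 0.05 CPM in RSC and 0.47, 0.18 and 0.29 CPM in VHN (log2 fold change 4.17, adjusted p = 0.0557). Its signal rested on PFC replicates 1 and 2. Pir on the same side gave 0.99 (adjusted p = 0.573) and Asb11 on the other side 1.71 (adjusted p = 0.449), while Asb9 had no fragment in any library.

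A pair of further lists were read beside the pathway. Of 18 accessory genes (dolichol supply, helper proteins and the carriers that export anchored proteins from the endoplasmic reticulum), 1 was called higher and 1 lower in NA and PFC. Of all genes tested, 7.58% were called higher and 6.66% lower, so these counts are near the background. Sec24d, a coat protein of export vesicles, was higher, with 13.8 ± 8.39 CPM in NA and PFC, against 2.5 ± 1.72 CPM in RSC and VHN (mean ± SD, n = 6 each; log2 fold change 2.58, SE 0.729, adjusted p = 0.0246). Its call was lost on leaving out any 1 of NA replicate 1, PFC replicates 2 or 3, RSC replicates 2 or 3, or VHN replicates 1 or 2, with adjusted p up to 0.233 over all alternatives. Tmed9, a cargo receptor of the p24 family, was lower, with 58.2 ± 31.5 CPM in NA and PFC, against 119 ± 25.1 CPM in RSC and VHN (log2 fold change -1.05, SE 0.269, adjusted p = 0.0146). It was not called without RSC replicates 2 and 3 and VHN replicate 3 (highest adjusted p over alternatives 0.191). The median log2 fold change of the 18 was -0.22, against 0.01 for all genes tested.

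Transcripts of the proteins that receive the anchor differed in both directions, while the proteins were not measured. Of the genes for 60 GPI-anchored proteins, 48 were tested. In NA and PFC, 11 of these were called higher and 6 lower, beside 7.58% of all genes called higher and 6.66% called lower. The median log2 fold change of the 48 was 0.19. Several of these genes were known from earlier results of these data. Without RSC replicates 2 and 3 and VHN replicate 3, 6 were called higher and 4 lower of 51 tested. Calls over all genes fell too in that fit, to 746 of 16007 tested, against 1982 of 13916 with all libraries.

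Among those higher, Ly6e, a small Ly6 family protein, had 286 ± 76.9 CPM in NA and PFC, against 97.3 ± 15.6 CPM in RSC and VHN (mean ± SD, n = 6 each; log2 fold change 1.56, SE 0.184, adjusted p = 3.03e-05). Ntng2, netrin-G2, an axonal adhesion molecule, had 48.5 ± 16.9 CPM in NA and PFC, against 4.8 ± 4.28 CPM in RSC and VHN (log2 fold change 3.62, SE 0.521, adjusted p = 0.0002). Negr1, an IgLON adhesion molecule, had 305 ± 59.4 CPM in NA and PFC, against 144 ± 17.2 CPM in RSC and VHN (log2 fold change 1.08, SE 0.158, adjusted p = 0.000225). All NA and PFC libraries were above all RSC and VHN libraries for these 3 genes, which were picked by lowest adjusted p. Across all tested genes, 7.52% had no overlap between the sides in either direction.

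Among those lower, Gfra1, the GDNF co-receptor, had 40.8 ± 23.7 CPM in NA and PFC, against 214 ± 53.7 CPM in RSC and VHN (mean ± SD, n = 6 each; log2 fold change -2.42, SE 0.333, adjusted p = 0.00013). Cntn4, a contactin, had 56.8 ± 19.0 CPM in NA and PFC, against 148 ± 14.4 CPM in RSC and VHN (log2 fold change -1.42, SE 0.198, adjusted p = 0.000155). Lypd1, a modulator of nicotinic receptors, had 55.0 ± 37.1 CPM in NA and PFC, against 457 ± 91.1 CPM in RSC and VHN (log2 fold change -3.04, SE 0.482, adjusted p = 0.000456). Their libraries did not overlap between the sides, beside 7.52% of all tested genes, and they too were picked by lowest adjusted p. RSC and VHN libraries held transcripts of anchored proteins at high levels where Piga counts were at 0 or near it. All 6 genes kept an adjusted p under 0.05 in all 22 alternative fits.

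Single cells gave Piga in few wells. Of 384 wells, 348 passed a minimum of 1000 detected genes, and their median depth was 112401 counts. Slc17a7 was counted in 93.7% of them, and Gad1, an interneuron gene that pyramidal cells should lack, in 0.862%. Piga had 116 counts in 15 of 348 wells, or 4.31% (95% exact binomial interval 2.43 to 7.01%). A single well held 27 of these counts (23.3%), and 4 wells together held 57.8%. The plates gave 2 of 89, 4 of 86, 2 of 83 and 7 of 90 wells, the last from the plate with the highest median count. When each well was thinned to 20000 counts, 8 of 340 wells held Piga (2.35%).

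Other members were found in 4.02% to 92.5% of wells, and Piga ranked 28 of the 29 genes found in the single-cell table by this share. Pgap1 was not analysed there. The most widespread were partners of Piga in the transferase: Pigyl in 92.5% of wells, Dpm2 in 90.2% and Pigp in 87.4%. Pigq was counted in 48.9%, Pigc in 17.5% and Pigh in 8.62%. Wells with Piga and wells without it did not stand apart in the rest of the pathway. The median number of other members detected was 9 in the 15 wells with Piga and 9 in the 333 wells without, and their summed mean level was 1110 CPM with Piga and 1050 CPM without. Median depth was 135574 counts in wells with Piga and 112129 in wells without.

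The wells were placed along a difference of marker genes from the bulk sides, the mean log2(CPM + 1) of 6 genes higher in NA and PFC (Kit, Calb1, Hpcal4, Cacna2d1, Htr2c and Nell2) minus that of 5 genes higher in RSC and VHN (Nts, Thbs1, Slc17a6, Scn4b and Sparcl1). The wells were cut into 3 classes of equal size along it. Piga was not among the markers. It was counted in 3 of 116 wells in the lowest class (2.59%, interval 0.537 to 7.37%), in 9 of 116 in the middle class (7.76%, 3.61 to 14.2%) and in 3 of 116 in the highest class (2.59%, 0.537 to 7.37%). Its mean level over wells was 0.323 CPM in the lowest, 7.18 CPM in the middle and 2.1 CPM in the highest class. The 3 wells of the lowest class held 5 counts in all, the 9 of the middle class 74 and the 3 of the highest class 37. The share of wells with Piga was the same in the lowest and the highest class and higher in the middle class, with intervals that overlapped. Few wells carry each value, so a difference in that share along the score was neither shown nor excluded. Piga was counted in 3 of 92 wells with Kit (3.26%) and 12 of 256 without Kit (4.69%). It was counted in 10 of 245 wells with Nts (4.08%) and 5 of 103 without Nts (4.85%). These classes are ranges of a score and not cell types, and 36 wells lay within 0.25 of a boundary.

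**Figure D4:**
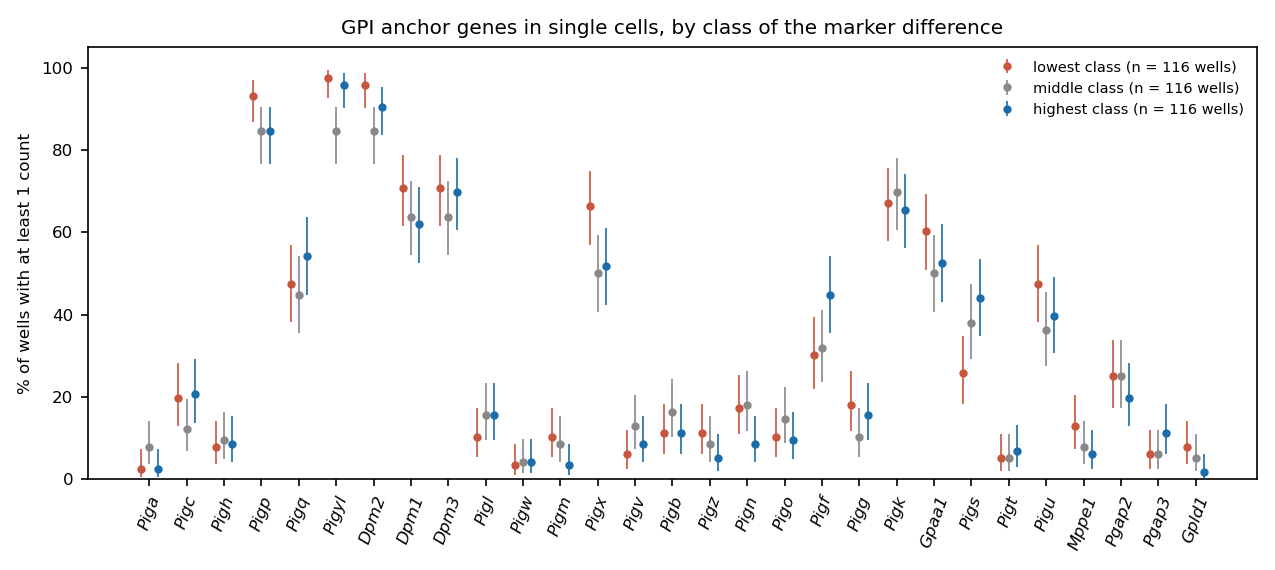
Share of single-cell wells with at least 1 count of each GPI anchor gene, in the lowest, middle and highest class of the marker difference (116 wells each, low to high from left to right within each gene). Points are shares and lines are 95% exact binomial intervals, which cover counting error only. Piga is in 2.59%, 7.76% and 2.59% of wells, while Pigyl, Dpm2 and Pigp are among the most widespread genes in every class.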

How the data were processed

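Bulk values came from a Cuffdiff read-group table, per the file headers, on mm9, per the submitters' processing notes; aligner, annotation and counting by strand are not given in the sources used here. The authors deposited fragments per gene, which are expected counts without normalization (rounded here, since 8.51% of the positive ones had decimals), and FPKM, used here to compare genes. Single-cell values are the authors' counts per gene and well, as deposited. Symbols were matched by Ensembl identifier (87.5% of gene entries), and 92 spike-in entries, all at 0, were left out. Replicate numbers only name libraries.

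The members and lists were chosen with earlier results of these data known. Genes kept by filterByExpr were fitted with edgeR 4.0.16 (R 4.3.3, TMM, quasi-likelihood, 4 group means, 8 residual degrees of freedom), adjusted by Benjamini-Hochberg over 13916 genes at 0.05, and checked on simulated counts. DESeq2 1.42.0 and limma 3.58.1 were alternatives, besides other scalings and filters, libraries left out and a replicate block. Full values are given for Piga, its 6 enzyme partners, members past the threshold, the genes next to Piga, and the 3 lowest adjusted p in each direction of further lists; Pigw, Pigv, Pigx and the subunits Pigl, Pigk and Pigt were added after their values were seen. Wells needed 1000 detected genes, and doublets were not removed. Whether molecular identifiers were used is not given in the sources used here, so intervals cover counting error only. The oligodendrocyte marker list is not reported here.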

Additional observations from a re-analysis of the deposited data

Results flagged for a closer look

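In 8 of the 60 sets of 6 libraries (30 genes, 2 sides), 1 library lay far from the other 5 by Dixon's criterion. Its chance rate of about 1 in 20 assumes normally distributed values of 1 population. Each set joined 2 populations on the CPM scale, so no excess over chance is read from this count. In NA and PFC libraries, Piga had 0.32 CPM in NA replicate 2, while the others lay between 14.3 and 18.3 CPM. Pigh had 31.3 CPM in PFC replicate 3, against 2.34 to 5.89 CPM in the others. Dpm1 had 43.4 CPM in PFC replicate 2, against 15.7 to 22.7 CPM. Pigv had 11.2 CPM in NA replicate 3, against 0 to 1.13 CPM. Pigb had 76.2 CPM in NA replicate 2, against 13.0 to 30.6 CPM. Mppe1 had 4.54 CPM in NA replicate 3, against 1.03 to 2.01 CPM. In RSC and VHN libraries, Pigx had 19.8 CPM in RSC replicate 3, against 6.13 to 8.35 CPM, and Pigt had 96.4 CPM in VHN replicate 1, against 52.9 to 68.6 CPM.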

How the results depend on the processing

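The count of 0 members called between the sides was kept under every alternative but one: without NA replicate 3 it was 1 (Pigv), so the range on leaving out 1 library was 0 to 1. In the test of 4 populations and in each pair of populations it was 0 throughout. Of 638 pairs of a member and an alternative, 1 was past the threshold, and 64 changed sign, in 16 members. The median log2 fold change of the 29 genes ranged from -0.24 to 0.02 on leaving out 1 library. All genes called between the sides numbered 1982, between 1488 and 2176 on leaving out 1 library, and 746 without RSC replicates 2 and 3 and VHN replicate 3, which leaves RSC with 1 library assumed to vary like the rest. The Piga ratio ranged from 133 to 282 on leaving out 1 library. The share of wells with Piga was 2.35% after thinning to 20000 counts. The planned division of wells by Fn1 was not run, since Fn1 was not analysed in the single-cell table, and a division by Nts, chosen after seeing the data, took its place.

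Same-numbered libraries did not deviate together (correlations of deviations from the group means -0.045 to 0.03), so the numbers were not taken as pairs. With the replicate block, 0 members and 1803 of all genes were called between the sides, and the median of the 29 genes was -0.15. In single cells, Piga was counted in 8 of 340 wells thinned to 20000 counts and in 10 of 318 wells thinned to 50000 counts. Thinning can only remove counts, so these values do not show what set the share at full depth. The part of depth in that share was not tested.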

Other observations

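Pigt, a transamidase subunit, stood high in bulk and low in single cells. In bulk it ranked 3 of the 30 genes by mean FPKM on both sides, at 30.3 in NA and PFC and 33.6 in RSC and VHN. In single cells it was counted in 20 of 348 wells (5.75%, exact interval 3.55 to 8.74%), with a mean of 1.73 CPM, whereas Pigk, of the same complex, was counted in 67.5% of wells. This was not particular to Pigt. Pigl had 17.4 FPKM in NA and PFC and 17.1 in RSC and VHN, and was counted in 13.8% of wells. Pigb had 14.7 and 15.5 FPKM and was counted in 12.9% of wells. FPKM and CPM are different scales, and no test was made.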
